A study of Mus musculus with 7 samples.

Results

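The Rab family is a large branch of the small GTPases and was taken here as every row of the gene table whose symbol is Rab followed by a number, with or without a letter. The rule found 58 of the 23420 genes in the table. Of these, 46 had enough reads to be tested between groups, among 11991 genes tested in all. RNA was sequenced from sorted microglia, the macrophages that live in brain tissue, of mouse cortex at postnatal day 30, gated as CD11b+, CD45low and CX3CR1+. The 4 cKO libraries are of MG-Srgap2f/f mice, whose floxed Srgap2 alleles are deleted by the tamoxifen-inducible recombinase Tmem119creErt2, driven in microglia. The 3 WT libraries came from Srgap2f/f littermates that lacked the recombinase but carried the same floxed alleles. Both groups were given 2 tamoxifen doses of 75 ug per g of body weight, at postnatal days 8 and 10. The recombinase was present in cKO mice alone, so its effect and that of the deletion cannot be told apart. The series asks how microglia without Srgap2, a protein that bends membranes and acts on the actin cytoskeleton, differ from those of control littermates.

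Rab proteins are switches. Bound to GTP they sit on the cytosolic face of a particular membrane and recruit effectors that move, tether or fuse vesicles, and after GTP hydrolysis a dissociation inhibitor returns them to the cytosol. Exchange factors load them with GTP and GTPase-activating proteins switch them off. In phagocytic cells such as microglia, Rab5 proteins mark the newly formed endosome or phagosome and Rab7 replaces them as it matures and fuses with lysosomes, while other members return receptors to the surface or carry cargo between the endoplasmic reticulum and the Golgi. Most Rab proteins are encoded by small groups of paralogous genes with closely related sequences.

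Total counts per library ranged from 27016173 to 35707304. Values are CPM, a gene's counts scaled by library size with trimmed-mean (TMM) factors, and SDs are over 4 cKO and 3 WT libraries. The targeted gene, Srgap2, fell to 344, 257, 275 and 212 CPM in cKO libraries, against 979, 691 and 693 CPM in WT libraries (log2 fold change -1.53, SE 0.17, edgeR adjusted p = 0.0053). Of 10 microglial markers, 9 did not pass the test, among them P2ry12 at 2910 ± 466 CPM in cKO libraries and 2738 ± 556 CPM in WT libraries. The sum of the 10, Tmem119 among them, was 50361 to 58329 CPM in cKO libraries and 58198 to 61169 CPM in WT libraries. Tmem119, whose locus drives the recombinase, fell to 3707 ± 716 CPM in cKO, against 6557 ± 571 CPM in WT libraries (log2 fold change -0.82, edgeR adjusted p = 0.046). Summed markers of other cells were low and overlapped between groups: border-associated macrophages at 66.3 to 131 CPM in cKO libraries and 72.2 to 109.96 CPM in WT libraries, astrocytes at 88.2 to 141 CPM in cKO libraries and 134 to 139.97 CPM in WT libraries, and neurons at 4.26 to 6.53 CPM in cKO libraries and 5.94 to 7.09 CPM in WT libraries. The oligodendrocyte sum was 223 to 330.3 CPM in cKO libraries and 225 to 255 CPM in WT libraries, the endothelial and mural sum was 57.4 to 76.5 CPM in cKO libraries and 72.7 to 80.5 CPM in WT libraries with Cldn5 and Rgs5 at 0, and monocyte, lymphocyte and erythroid sums were at most 20.6 CPM in any library (Retnlg, Hba-a1 and Hba-a2 among those at 0). The part of these cells in the Rab values was not tested. The rank correlation of a library's deviation with GC content was -0.52, 0.17, -0.42 and 0.44 in cKO replicates 1 to 4, against -0.017, 0.071 and 0.24 in WT replicates 1 to 3. Xist RNA was high in cKO replicates 2 and 4 at 69.4 and 144 CPM and in WT replicates 2 and 3 at 243 and 127 CPM, and under 1 CPM in the other libraries.

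Among Rab genes, levels can be compared only per length, here as CPM per kb of exon. Rab5c, an early endosome Rab, stood first at 238 ± 41.7 CPM per kb in cKO and 162 ± 17.03 CPM per kb in WT, at percentile 98.0 of all tested genes. Rab1b, which acts between endoplasmic reticulum and Golgi, followed at 109 ± 21.2 CPM per kb in cKO and 94.2 ± 7.12 CPM per kb in WT. Rab14, which works between Golgi and endosomes, came after it at 93.4 ± 8.99 CPM per kb in cKO and 80.0 ± 3.71 CPM per kb in WT. Rab1b and Rab14 lay within 1 SD of each other in cKO. The next members lay close together. Rab35, a recycling Rab, had 81.6 ± 5.77 CPM per kb in cKO and 76.1 ± 2.99 CPM per kb in WT. Its fellow recycling Rab, Rab4b, had 75.4 ± 14.5 CPM per kb in cKO and 73.6 ± 4.90 CPM per kb in WT. Rab31, a paralog of Rab22a, had 75.8 ± 10.9 CPM per kb in cKO and 61.9 ± 5.97 CPM per kb in WT. These 3 do not differ beyond their spread in cKO. Rab1, Rab24, Rab2a and Rab11a completed the 10 highest, at 66.9, 55.8, 57.3 and 57.8 CPM per kb in cKO and at 59.1, 61.7, 51.3 and 47.5 CPM per kb in WT. Rab7 came next, at 48.6 ± 1.81 CPM per kb in cKO and 32.5 ± 1.97 CPM per kb in WT. The order is by the mean over all libraries. In WT alone, Rab43 (35.9 CPM per kb) and Rab10 (33.7 CPM per kb) were above Rab7.

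**Figure D1:**
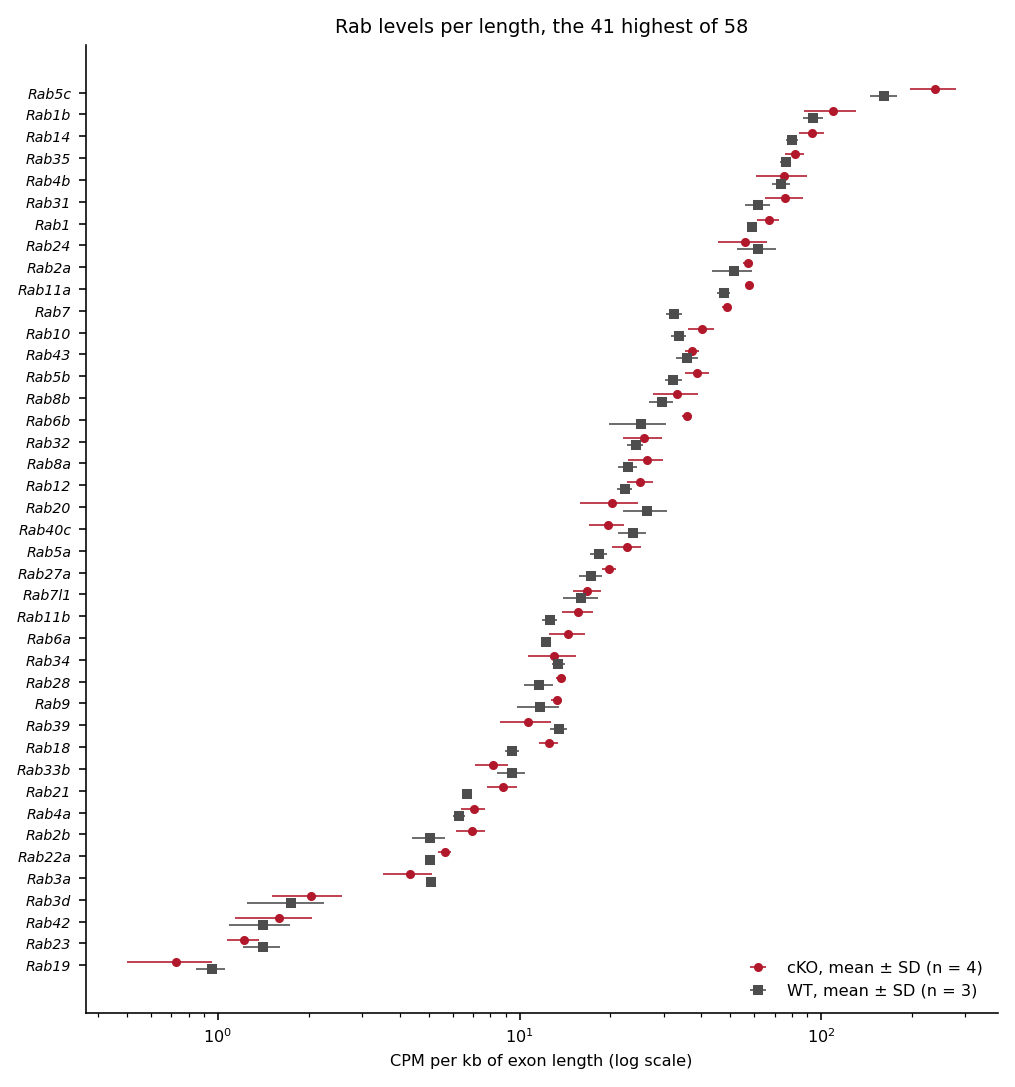
Level of the tested Rab genes in CPM per kb of exon on a log axis, for the 41 highest of the 58 rows, as mean ± SD. For each gene the cKO point is drawn over the WT point on the page, whichever level is higher. Rab5c stands apart at the top (238 CPM per kb in cKO, 162 CPM per kb in WT) and the members below it form a continuous range.

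Most Rab transcripts had a higher mean level in cKO microglia, and 1 passed the test. Of the 46 tested, 37 (80.4%) had a log2 fold change above 0, against 48.1% of all tested genes, and the median was 0.20 against -0.01 over all genes. Rab7 rose and no Rab gene fell at an adjusted p under 0.05. Over all genes 0.359% passed, 0.317% higher and 0.0417% lower in cKO. In 13 Rab genes (28.3%) every cKO library lay above every WT library, against 8.86% of all genes, and in 1 (2.17%) every cKO library lay below, against 7.2% of all genes. Unadjusted p-values under 0.05 were found for 13 Rab genes higher in cKO (background 9.65%) and 1 lower (background 6.87%). Of the 46, 5 low genes (Rab13, Rab15, Rab25, Rab30 and Rab37) reached the count minimum in 3 or more cKO libraries but in fewer than 3 WT libraries, and of the other 41, 32 had a fold change above 0. With a mean of at least 10 CPM, 36 Rab genes remained. Of these 30 had a fold change above 0, 12 (33.3%) lay wholly above WT and the median was 0.19, against 11.2% wholly above and a median of 0.01 over the 8200 genes of that level. Summed over all Rab rows the level was 3744, 4019, 3978 and 4140 CPM in cKO libraries, against 3305, 3348 and 3475 CPM in WT libraries. The lowest cKO sum was above the highest WT sum. Counting both directions, the groups did not overlap for 14 of the 46 (30.4%, against 16.1% of all genes); without cKO replicate 4, where fewer libraries make this more common, it was 22 (47.8%, against 24% of all genes), 18 higher and 4 lower. In such bulk samples, more cells of a type and more RNA per cell cannot be told apart, and less of either likewise.

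**Figure D2:**
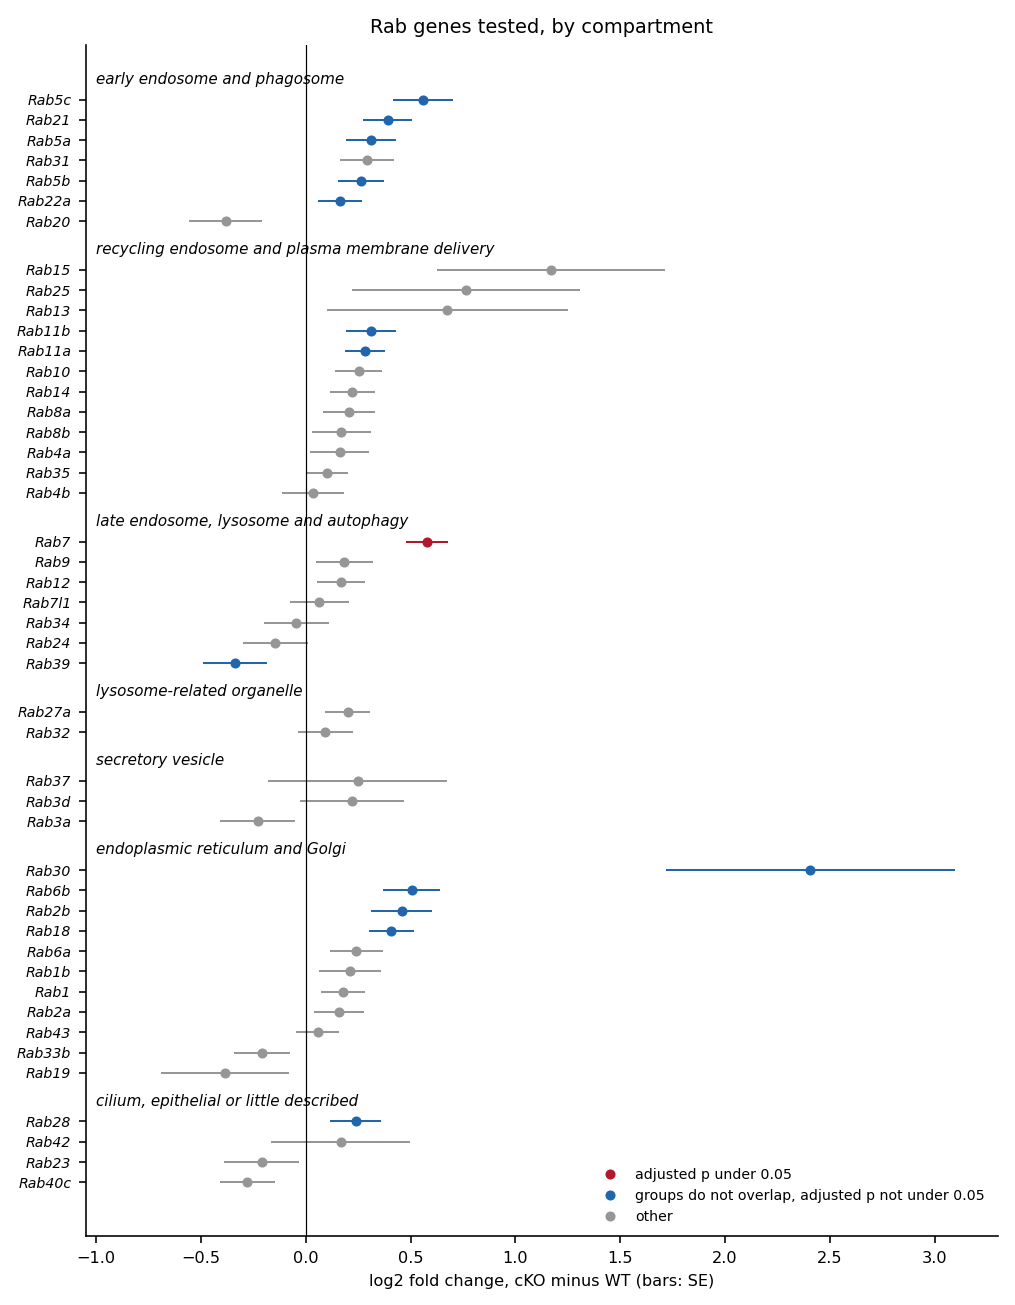
Log2 fold change (cKO over WT) of the 46 tested Rab genes with its standard error, grouped by compartment. Most points lie to the right of 0, up to 2.41 for Rab30, which has few reads, and 1 gene, Rab7, passed the test.

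Rab7, which directs late endosomes and phagosomes to lysosomes, was at 124, 131, 130.0 and 121 CPM in cKO libraries, against 79.9, 84.2 and 90.2 CPM in WT libraries. The spread within each group was small, and the lowest cKO library was above the highest WT library. The means were 127 ± 4.73 CPM in cKO libraries and 84.7 ± 5.15 CPM in WT libraries, a 1.495-fold difference (log2 fold change 0.58, SE 0.10, edgeR adjusted p = 0.040). Within the libraries high in Xist, the values were 131 and 121 CPM in cKO libraries and 84.2 and 90.2 CPM in WT libraries, and within the others 124 and 130.0 CPM in cKO libraries and 79.9 CPM in WT libraries. Under 20 other settings its log2 fold change ranged from 0.54 to 0.63 and passed under 15, but it missed the threshold without cKO replicate 2 (adjusted p = 0.16), cKO replicate 3 (0.16), WT replicate 1 (0.10), WT replicate 2 (0.26) or WT replicate 3 (0.13), each again by edgeR.

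The members differ in the motifs their promoters hold. Windows of RefSeq (GRCm38.p6; 250 bases before to 50 after the start) are printed for Rab7, the gene that passed; for Rab5c and Rab5a, paralogs whose levels both lay wholly above WT; and for Rab39, the gene that lay wholly below. Each is read 5′ to 3′ on the gene's strand. Capitals mark the E-box core CACGTG, the cAMP response element TGACGTCA and the CCAAT box (CCAAT, or ATTGG on the other strand); the ETS site CCGGAAGT was searched as well, on both strands.
Rab7, chr6:88045221-88045520, minus strand: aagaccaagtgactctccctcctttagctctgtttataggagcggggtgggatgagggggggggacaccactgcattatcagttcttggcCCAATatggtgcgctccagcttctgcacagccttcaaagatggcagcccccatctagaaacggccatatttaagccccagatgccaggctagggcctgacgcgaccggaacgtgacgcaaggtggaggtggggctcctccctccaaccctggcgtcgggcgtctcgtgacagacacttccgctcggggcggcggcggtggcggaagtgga
Rab5c, chr11:100738166-100738465, minus strand: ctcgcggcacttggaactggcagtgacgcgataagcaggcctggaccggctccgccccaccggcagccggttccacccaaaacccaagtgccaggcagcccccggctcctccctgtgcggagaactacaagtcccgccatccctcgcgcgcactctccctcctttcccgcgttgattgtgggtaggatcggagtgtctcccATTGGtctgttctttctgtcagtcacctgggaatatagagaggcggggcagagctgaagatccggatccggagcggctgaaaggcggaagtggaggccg
Rab5a, chr17:53478984-53479283, plus strand: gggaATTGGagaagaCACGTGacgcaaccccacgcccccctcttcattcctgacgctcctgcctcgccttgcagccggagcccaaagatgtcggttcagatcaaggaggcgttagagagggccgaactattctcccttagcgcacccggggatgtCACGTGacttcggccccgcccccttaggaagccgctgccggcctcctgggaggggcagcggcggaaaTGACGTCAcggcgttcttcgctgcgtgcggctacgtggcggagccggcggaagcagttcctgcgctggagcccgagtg
Rab39, chr9:53706183-53706482, minus strand: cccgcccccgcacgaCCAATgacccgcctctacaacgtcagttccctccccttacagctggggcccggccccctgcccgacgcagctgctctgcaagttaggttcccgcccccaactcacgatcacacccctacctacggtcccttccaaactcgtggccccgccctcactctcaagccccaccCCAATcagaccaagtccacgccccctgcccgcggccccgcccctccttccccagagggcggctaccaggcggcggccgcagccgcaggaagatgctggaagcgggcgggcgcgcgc
The Rab7 window is 1 of its 2 listed starts, printed with its motifs known; the other holds GC boxes but no CCAAT box. Each of these 4 windows holds a CCAAT box, and Rab5a alone among them holds the E-box core and the cAMP response element. The exact ETS letters searched are in none, and shorter or varied ETS letters were not searched. Windows were listed for 48 of the 58 Rab rows, 60 windows in all. The E-box core was in 6 of these 60 and in 7.15% of 32851 windows of all genes, the CCAAT box in 43.3% against 37.4%, the cAMP response element in 3.33% against 1.79% and the ETS site in 3.33% against 3.89%. The GC box GGGCGG was in 68.3% of Rab windows against 35.7% of all, and the TATA box TATAAA in 6.67% against 13.6%. No motif searched contains another. A match describes the sequence and is not a measured site.

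All 7 early endosome and phagosome members were tested. Their median log2 fold change was 0.29, and none passed the test. Of the 7, 6 (85.7%) were above 0, against 48.1% of all genes. Wholly above WT lay 5 (71.4%), against 8.86% of all genes. Rab5c had 403, 460.1, 425 and 587 CPM in cKO libraries, against 313, 288 and 354 CPM in WT libraries. All cKO libraries were above all WT libraries, with cKO replicate 4 highest. The log2 fold change was 0.56 (SE 0.14, edgeR adjusted p = 0.12), nearly that of Rab7 with a wider spread. Rab5a, the member best known for homotypic fusion of early endosomes, had 59.7, 49.9, 58.1 and 47.6 CPM in cKO libraries, against 40.2, 45.2 and 44.7 CPM in WT libraries (log2 fold change 0.31, SE 0.12, edgeR adjusted p = 0.22). Rab5b had 111, 123, 121 and 138 CPM in cKO libraries, against 99.0, 99.2 and 110.5 CPM in WT libraries (log2 fold change 0.26, SE 0.11, edgeR adjusted p = 0.25). The groups did not overlap for either gene, although the Rab5b margin was under 1 CPM, and cKO replicate 4 was lowest for Rab5a and highest for Rab5b and Rab5c.

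Rab21, which follows integrins through early endosomes, had 50.1, 42.4, 46.8 and 38.5 CPM in cKO libraries, against 33.6, 33.1 and 35.05 CPM in WT libraries (log2 fold change 0.39, SE 0.12, edgeR adjusted p = 0.15). The WT libraries were close to each other and all below cKO. Rab22a, which sorts cargo from early to recycling endosomes, had 40.5, 38.3, 40.6 and 43.5 CPM in cKO libraries, against 34.9, 37.6 and 36.5 CPM in WT libraries (log2 fold change 0.16, SE 0.10, edgeR adjusted p = 0.47), again without overlap. The Rab22a margin between the groups was under 1 CPM. Rab31, its paralog, had 242, 289, 282 and 343 CPM in cKO libraries, against 215, 233 and 259.99 CPM in WT libraries. Here cKO replicate 1 lay within the WT range. The phagosomal Rab20 had a log2 fold change below 0, with 22.5, 28.8, 25.2 and 36.6 CPM in cKO libraries, against 29.8, 39.2 and 41.4 CPM in WT libraries, and the groups overlapped.

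**Figure D3:**
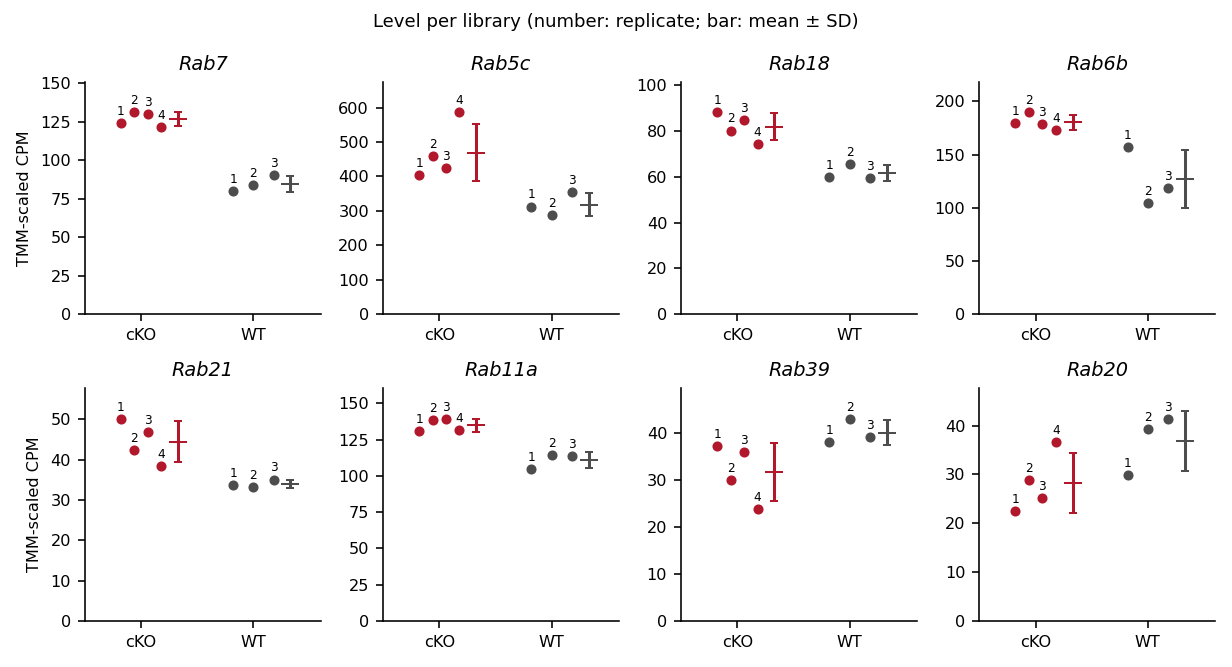
CPM of 8 Rab genes in every library, with cKO points left of WT points, numbered by replicate, and a bar for the mean ± SD of each group. For Rab7 the cKO libraries (121 to 131 CPM) and the WT libraries (79.9 to 90.2 CPM) are both narrow, while Rab5c is spread wider in cKO, from 403 to 587 CPM.

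In the late endosome, lysosome and autophagy group 7 of 10 members were tested, and Rab7 alone passed. The median log2 fold change was 0.07, and 4 (57.1%) were above 0, against 48.1% of all genes. Wholly above WT lay 1 (14.3%), against 8.86% of all genes, and wholly below lay 1 (14.3%), against 7.2%. Rab39, which in human cells acts in phagosome maturation and autophagy, was the single member lying wholly below WT. It had 37.1, 29.9, 36.01 and 23.7 CPM in cKO libraries, against 38.0, 43.0 and 39.1 CPM in WT libraries (log2 fold change -0.34, SE 0.15, edgeR adjusted p = 0.30). The gap between the highest cKO and the lowest WT library was under 1 CPM. Rab24, an autophagy Rab, averaged 65.1 ± 12.03 CPM in cKO libraries and 72.1 ± 10.7 CPM in WT libraries. Rab12 averaged 52.0 ± 5.15 CPM in cKO libraries and 46.3 ± 2.64 CPM in WT libraries, and Rab9, which returns receptors from late endosomes to the Golgi, averaged 19.2 ± 0.838 CPM in cKO libraries and 16.9 ± 2.67 CPM in WT libraries. Rab7l1, now called Rab29 and a partner of the kinase Lrrk2, averaged 22.7 ± 2.40 CPM in cKO libraries and 21.6 ± 2.86 CPM in WT libraries, and Rab34 averaged 23.0 ± 4.22 CPM in cKO libraries and 23.7 ± 1.18 CPM in WT libraries. None of these 5 passed the test.

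All 12 members of recycling and delivery to the plasma membrane were tested, and none passed the test. All had a log2 fold change above 0, with a median of 0.24, against 48.1% of all genes above 0. Wholly above WT lay 2 (16.7%), against 8.86% of all genes. Of the 12, Rab13, Rab15 and Rab25 entered the test through their cKO libraries, which favours a fold change above 0. Over the other 9, all of them above 0, the median was 0.21. Rab11a, the central Rab of recycling endosomes, had 131, 138, 139.5 and 132 CPM in cKO libraries, against 105, 114 and 114 CPM in WT libraries (log2 fold change 0.28, SE 0.10, edgeR adjusted p = 0.18). Its paralog Rab11b had 84.6, 109, 88.6 and 100.2 CPM in cKO libraries, against 79.4, 71.99 and 79.7 CPM in WT libraries (log2 fold change 0.31, SE 0.12, edgeR adjusted p = 0.21). Neither overlapped. Rab10, which delivers exocytic vesicles to the plasma membrane, had 149, 140.0, 154 and 122 CPM in cKO libraries, against 111, 124 and 119.9 CPM in WT libraries (log2 fold change 0.25, SE 0.11, edgeR adjusted p = 0.28). Its cKO replicate 4 lay within the WT range. Rab14 had 298, 301, 306 and 246 CPM in cKO libraries, against 252, 254 and 233 CPM in WT libraries, with the same library low. In the exocytic pair, Rab8a averaged 120.1 ± 15.7 CPM in cKO libraries and 104 ± 7.62 CPM in WT libraries, and Rab8b averaged 158 ± 26.6 CPM in cKO libraries and 140.1 ± 12.96 CPM in WT libraries. Rab4a averaged 12.4 ± 1.13 CPM in cKO libraries and 11.1 ± 0.496 CPM in WT libraries, and Rab35 and Rab4b, although among the highest Rab genes, had the smallest log2 fold changes of the group, 0.10 and 0.03. Rab13, Rab15 and Rab25, known from epithelia and neurons, were at most 1.11 CPM in any library.

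Of the endoplasmic reticulum and Golgi members 11 of 12 were tested, and none passed the test. The median log2 fold change was 0.21, and 9 (81.8%) were above 0, against 48.1% of all genes. Wholly above WT lay 4 (36.4%), against 8.86% of all genes. Without Rab30, which entered the test through its cKO libraries, 8 of 10 were above 0, the median was 0.19 and 3 lay wholly above WT. Rab18, which acts at the endoplasmic reticulum and on lipid droplets, had 88.3, 80.2, 84.7 and 74.4 CPM in cKO libraries, against 59.9, 65.7 and 59.6 CPM in WT libraries (log2 fold change 0.41, SE 0.11, edgeR adjusted p = 0.12). The gap between the groups was wider than the WT range. Rab6b, a Golgi Rab known from neurons, had 179.9, 189.96, 179 and 173 CPM in cKO libraries, against 158, 105 and 119 CPM in WT libraries (log2 fold change 0.51, SE 0.14, edgeR adjusted p = 0.13). For this gene it was the WT group that spread. Rab2b, of the Golgi tethering pair, had 22.6, 21.1, 19.5 and 17.3 CPM in cKO libraries, against 15.6, 12.5 and 15.8 CPM in WT libraries (log2 fold change 0.46, SE 0.15, edgeR adjusted p = 0.16).

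The abundant Rab1 genes, which carry cargo out of the endoplasmic reticulum, did not pass the test. Rab1, now Rab1a, had 200.3, 194, 196 and 165 CPM in cKO libraries, against 166, 167 and 168 CPM in WT libraries, where 3 cKO libraries were high and cKO replicate 4 was below all WT libraries. Rab1b had 169, 234, 205 and 268 CPM in cKO libraries, against 173, 202 and 192 CPM in WT libraries, with cKO replicate 4 highest and the groups overlapping. Rab6a averaged 49.7 ± 6.80 CPM in cKO libraries and 42.1 ± 1.10 CPM in WT libraries, Rab2a averaged 122 ± 4.71 CPM in cKO libraries and 109 ± 16.4 CPM in WT libraries, and Rab43 averaged 201 ± 10.2 CPM in cKO libraries and 193 ± 16.3 CPM in WT libraries. Rab33b, which binds an autophagy protein at the Golgi, averaged 28.5 ± 3.57 CPM in cKO libraries and 32.9 ± 3.47 CPM in WT libraries. Rab30 had the highest log2 fold change of the family, 2.41 (SE 0.69, edgeR adjusted p = 0.14), on 12, 4, 14 and 12 counts in cKO libraries, against 3, 1 and 2 counts in WT libraries. It entered the test through its cKO libraries, so the value describes a scarce transcript, and its fitted size depends on the prior count.

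Members of lysosome-related organelles and secretory vesicles were mostly scarce in these cells. Rab27a, which docks secretory lysosomes, averaged 62.8 ± 3.34 CPM in cKO libraries and 54.7 ± 4.63 CPM in WT libraries, and Rab32, which serves lysosome-related organelles and mitochondria, averaged 55.6 ± 8.20 CPM in cKO libraries and 52.1 ± 3.25 CPM in WT libraries; neither passed the test. Of the secretory group 3 of 6 were tested, with a median log2 fold change of 0.22 that was -0.0040 without Rab37, which entered through its cKO libraries. Rab3a, of synaptic vesicles, averaged 7.74 ± 1.45 CPM in cKO libraries and 9.07 ± 0.331 CPM in WT libraries, Rab3d averaged 8.08 ± 2.10 CPM in cKO libraries and 6.92 ± 1.97 CPM in WT libraries, and Rab37 was at most 0.766 CPM in any library. Among the remaining members, Rab28, a cilium-associated Rab, had 24.7, 24.1, 23.6 and 22.6 CPM in cKO libraries, against 18.1, 19.9 and 22.4 CPM in WT libraries (log2 fold change 0.24, SE 0.12, edgeR adjusted p = 0.36), without overlap. The Rab28 margin between the groups was under 1 CPM. Rab40c, part of a ubiquitin ligase, averaged 50.3 ± 6.74 CPM in cKO libraries and 61.0 ± 6.44 CPM in WT libraries. Rab23, Rab42 and Rab19 averaged at most 6.36 CPM in either group, and none passed. The 12 rows not tested were Rab3b, Rab3c, Rab9b, Rab17, Rab26, Rab27b, Rab33a, Rab36, Rab38, Rab39b, Rab40b and Rab44, with 1 to 46 counts over all libraries.

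The order of the cKO libraries differed between genes of low and high GC content. In cKO replicate 4, whose deviations rise with GC, the value was the lowest of the cKO group for 15 and the highest for 2 of the 23 tested Rab genes below their median GC content of 49.0%. Of the 23 at or above it, cKO replicate 4 was lowest for 3 and highest for 15. Rab18 (39.8% GC) and Rab21 (42.7% GC) are examples of a lowest value and Rab5c (54.7% GC) and Rab1b (58.9% GC) of a highest one, while Rab6b (51.4% GC) was lowest there and Rab11a (39.5% GC) was not. Across the 46 tested Rab genes the log2 fold change had Pearson r = -0.26 and Spearman rho = -0.28 with GC content, against r = -0.11 and rho = -0.13 over 11851 genes. These are correlations across genes that share their libraries, given as a description. With per-library offsets for GC content and length, Rab7, Rab5c, Rab6b and Rab21 passed as higher and Rab20 and Rab39 as lower, among 562 genes in all, and Rab7 had a log2 fold change of 0.56.

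No shift between paralogs passed the test. The share of a family's summed CPM per kb that fell to its highest member was computed for 9 families with 2 or more tested members, with an exact two-sided permutation test over the 35 divisions of the libraries (smallest possible p = 0.029) and adjustment over the 9. Rab5c made up 77.3, 79.6, 77.5 and 82.4% of the Rab5 sum in cKO libraries, against 76.7, 74.4 and 77.0% in WT libraries. The difference of 3.14 percentage points (exact p = 0.11, adjusted p = 0.45) did not pass, although the groups did not overlap. Rab5b held 13.2, 13.2, 13.7 and 12.03% in cKO libraries, against 15.0, 15.9 and 14.9% in WT libraries. Every cKO share of Rab5b was thus below every WT share, but it was not tested, since only the highest member was. Rab5a held 7.77 ± 1.77% in cKO and 8.67 ± 0.912% in WT. Rab6b held 71.3 ± 2.61% of its pair with Rab6a in cKO and 66.9 ± 4.05% in WT (difference 4.39 percentage points, exact p = 0.17, adjusted p = 0.45), and Rab3a held 68.0 ± 5.57% in cKO and 74.6 ± 5.99% in WT (difference -6.63, exact p = 0.20, adjusted p = 0.45). Rab11a held 78.7 ± 1.85% in cKO and 79.0 ± 1.54% in WT, Rab31 held 93.0 ± 0.822% in cKO and 92.4 ± 0.559% in WT, Rab1b held 61.6 ± 6.44% in cKO and 61.4 ± 1.67% in WT, and Rab8b held 55.6 ± 7.22% in cKO and 56.4 ± 3.97% in WT. Rab2a held 89.2 ± 1.14% in cKO and 90.9 ± 2.00% in WT, and Rab4b held 91.3 ± 0.852% in cKO and 92.1 ± 0.175% in WT. No adjusted p was under 0.05, which a single family could not have reached. Reads shared by close paralogs could have been assigned to either, since the counting rule is not given in the sources used here.

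**Figure D4:**
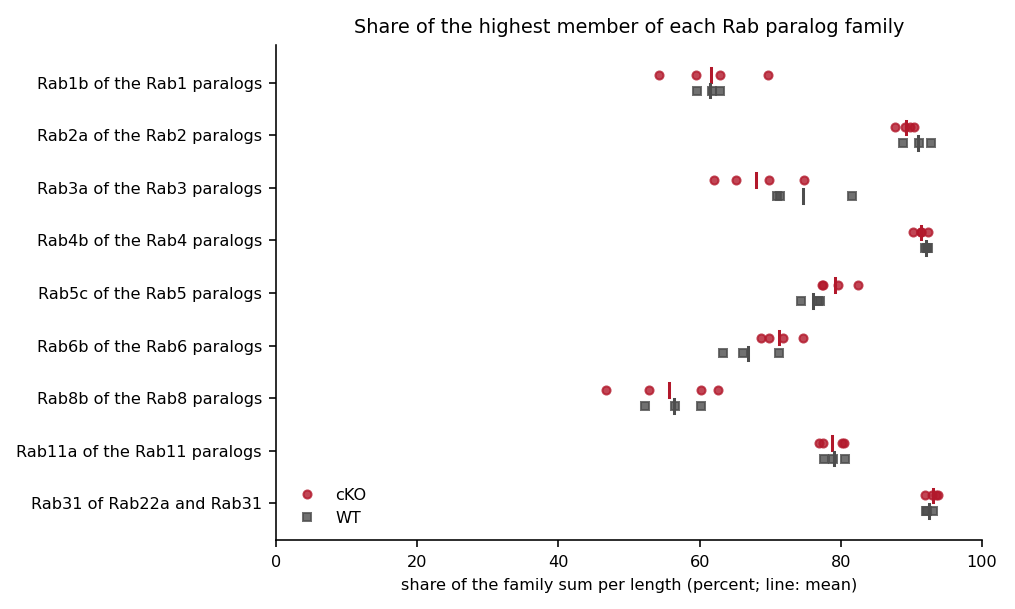
Share of each paralog family's summed CPM per kb held by its highest member, in percent, with 1 point per library and a line at the mean. The row of cKO points is drawn over the row of WT points on the page, whichever share is higher. The Rab5c share is 77.3 to 82.4% in cKO and 74.4 to 77.0% in WT, and in the other 8 families the groups overlap.

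Among genes for the proteins that load, unload and read out Rab GTPases, no gene passed the test. Of 11 tested genes of prenylation and recycling from membranes 6 (54.5%) had a log2 fold change above 0 (median 0.05). So had 20 (52.6%) of 38 exchange factors (median 0.01) and 17 (48.6%) of 35 GTPase-activating proteins (median -0.01). Of 56 effectors and kinases 21 (37.5%) were above 0 (median -0.05) and 35 below. Over all genes 48.1% were above 0. Of the effectors and kinases 4 (7.14%) lay wholly below WT, against 7.2% of all genes, and 2 (3.57%) wholly above, against 8.86%. Their median was 0.00071 with GC content and length offsets. Gdi2, the dissociation inhibitor most widely expressed, averaged 669 ± 45.9 CPM in cKO libraries and 542 ± 11.9 CPM in WT libraries (log2 fold change 0.30, SE 0.10, edgeR adjusted p = 0.17), without overlap between groups. Among exchange factors, Dennd5a, which acts on Rab39 in human cells, averaged 278 ± 12.4 CPM in cKO libraries and 218 ± 17.4 CPM in WT libraries (edgeR adjusted p = 0.14), and Rab3ip, which activates Rab8, averaged 38.2 ± 3.39 CPM in cKO libraries and 46.9 ± 1.28 CPM in WT libraries (edgeR adjusted p = 0.21). Dennd6b averaged 7.97 ± 1.36 CPM in cKO libraries and 11.7 ± 2.21 CPM in WT libraries (edgeR adjusted p = 0.17).

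Among GTPase-activating proteins, Tbc1d25, which acts on Rab33b, averaged 13.2 ± 0.840 CPM in cKO libraries and 17.3 ± 0.599 CPM in WT libraries (log2 fold change -0.39, edgeR adjusted p = 0.17). Tbc1d17 averaged 104 ± 16.2 CPM in cKO libraries and 130.3 ± 2.73 CPM in WT libraries (edgeR adjusted p = 0.23). Among effectors the smallest p-values belonged to genes lower in cKO. Plekhm2, which links lysosomes to kinesin, averaged 62.4 ± 3.47 CPM in cKO libraries and 82.3 ± 5.09 CPM in WT libraries (log2 fold change -0.40, SE 0.10, edgeR adjusted p = 0.12). Mlph, melanophilin, an effector of Rab27a, averaged 86.4 ± 18.2 CPM in cKO libraries and 131 ± 13.5 CPM in WT libraries (log2 fold change -0.60, SE 0.16, edgeR adjusted p = 0.13). Zfyve27, protrudin, a partner of Rab11, averaged 63.9 ± 5.24 CPM in cKO libraries and 83.8 ± 5.31 CPM in WT libraries (log2 fold change -0.39, SE 0.11, edgeR adjusted p = 0.13). The exchange complex of Rab7, chosen after its values were seen, did not pass the test: Mon1b averaged 49.4 ± 2.22 CPM in cKO libraries and 44.5 ± 3.41 CPM in WT libraries, Mon1a averaged 26.8 ± 2.84 CPM in cKO libraries and 27.9 ± 2.76 CPM in WT libraries, and Ccz1 averaged 45.4 ± 3.31 CPM in cKO libraries and 44.8 ± 0.527 CPM in WT libraries.

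**Figure D5:**
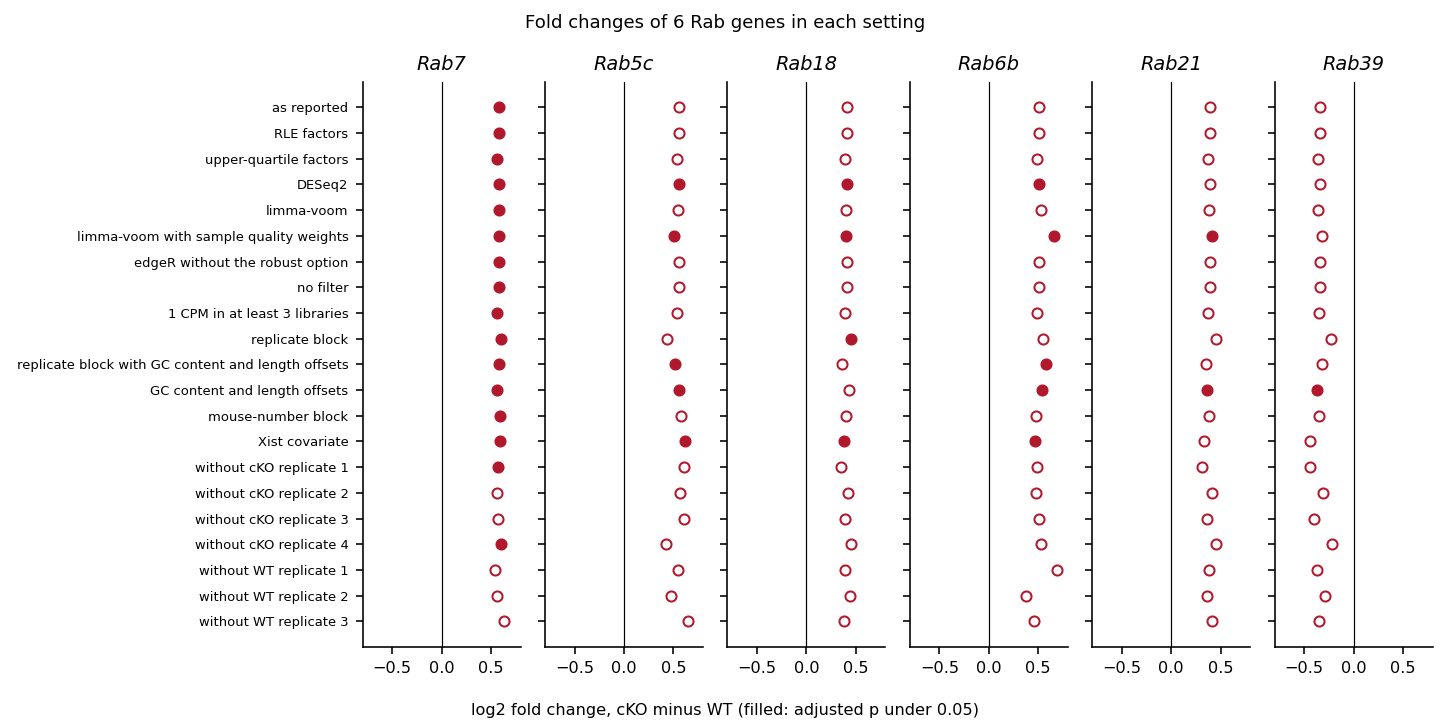
Log2 fold change (cKO over WT) of 6 Rab genes as reported and under each alternative setting, with filled points where the adjusted p was under 0.05. Rab7 stays between 0.54 and 0.63, and none of the 6 genes crosses 0.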

How the data were processed

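The authors deposited 1 table of whole-number read counts per gene symbol, as raw values; they used DRAGEN with GRCm39, per the submitters' processing notes. How reads were assigned, to which annotation and with what strand setting is not given in the sources used here. All columns matched a labelled library. Libraries of a group differed beyond counting noise (chi-square divided by its degrees of freedom: 18.9 to 98.6), so each counted as 1 sample. Each library has its own mouse number in the labels, and sex, litter and batch are not given there.

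Genes were kept with filterByExpr (least count 10, least total count 15) and compared with the quasi-likelihood test of edgeR 4.0.16 (robust, TMM factors; limma 3.58.1, R 4.3.3) without covariates. P-values were adjusted by Benjamini-Hochberg over all 11991 genes tested, with a threshold of 0.05. The SE is the log2 fold change divided by the square root of F. The scripts were tested on simulated data. Exon lengths came from GENCODE M21 basic transcripts. GC content came from each gene's longest GENCODE M21 transcript, leaving out retained introns, nonsense-mediated decay and processed transcripts. Both are of GRCm38, another build than that of the counts, and so serve only as gene properties. Rab1 and Rab7l1 were read as the former names of Rab1a and Rab29. The members and gene lists were chosen with earlier results of these data known. Named with full statistics were members past the threshold, the 12 with the smallest p and those without overlap between groups; named with levels were the 10 highest per kb; of the regulator lists, up to 3 each with the smallest p were named. Alternatives covered RLE and upper-quartile factors, DESeq2 1.42.0, limma-voom without and with quality weights, no robust option, other filters, GC and length offsets (values for 98.8% of genes tested), Xist as a covariate, blocks and leaving out each library. A few list members are left out of the text but stay in all counts.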

Additional observations from a re-analysis of the deposited data

Results flagged for a closer look

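Among the 46 tested Rab genes, 3 had a cKO library whose gap to its nearest neighbour took a share of the range of the 4 cKO libraries above Dixon's 95% critical value; chance flags about 1 in 20 groups. Rab14 had a gap of 0.874 of the range, with cKO replicate 4 at 246 CPM and the other cKO libraries at 298, 301 and 306 CPM. Rab1 had a gap of 0.848, with the same library at 165 CPM and the others at 200.3, 194 and 196 CPM. Rab43 had a gap of 0.830, with cKO replicate 1 at 186 CPM and the others at 204, 208 and 207 CPM.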

How the results depend on the processing

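The log2 fold change of each of the 15 Rab genes that the naming rule gives full statistics kept its sign in every alternative run with a value for it. Rab30 had a value in 14 of the 20 runs. The Rab median kept its sign as well, at 0.16 to 0.23. Of the 46 tested Rab genes 1 passed the threshold as reported, and 4 with DESeq2 (Rab7, Rab5c, Rab6b and Rab18, all higher). Quality-weighted limma-voom gave 8 (7 higher and 1, Rab20, lower), and GC content and length offsets gave 6 (4 higher, 2 lower). With Xist as a covariate 4 passed, the same 4 as with DESeq2. Of 11991 genes tested in all, 43 passed as reported, 524 with DESeq2 and 904 with weighted voom. Of the same 11991, 562 passed with the offsets, 170 with the mouse-number block and 1056 with Xist. Without a filter 89 of 16387 genes passed. Calls over all genes thus rose in the same runs, and whether Rab genes were called more often than others was not tested. Of all calls 88.4% were higher in cKO as reported, 78.7% with upper-quartile factors, 69.8% with DESeq2 and 56.6% with weighted voom. The share was 71.4% with the offsets, 70.5% with Xist and 50% to 86.4% with 1 library left out. The cause of these changes was not tested. Leaving out 1 library gave 4 to 142 genes, 0 to 1 Rab genes and 14 to 22 Rab genes without overlap (30.4 to 47.8%, against 18.4 to 27.9% of all genes for the same sets of libraries). Among group medians, that of late endosome members was -0.052 with weighted voom and -0.021 with the offsets. Without a filter, which tests more members, it was 0.38 for lysosome-related organelles and 0.20 for cilium. Prenylation genes had a median of -0.041 with Xist. Over the same 3 secretory genes the median was -0.013 with weighted voom and 0.41 with Xist. Secretory medians of -0.0022 without a filter and -0.024 with the 1 CPM filter are over other sets of members. For early endosome members the median was 0.20 without cKO replicate 4, and also changed with the replicate block given below. Leaving out the 5 genes that entered through cKO was chosen after seeing the data. With 1 library left out, medians ranged from 0.20 to 0.33 for early endosome, 0.22 to 0.29 for recycling, -0.039 to 0.13 for late endosome, 0.17 to 0.23 for endoplasmic reticulum and Golgi, -0.038 to 0.38 for secretory, 0.096 to 0.20 for lysosome-related, -0.13 to 0.058 for cilium, -0.060 to 0.041 for prenylation and -0.082 to 0.018 for effectors. Depth limits what can be said of Rab30 and of the 12 untested genes.

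Replicate numbers 1 to 3 are shared between groups and cKO replicate 4 has no partner. Deviations of same-numbered libraries correlated at 0.387, 0.0691 and -0.173, and 3 of 6 libraries correlated best with their own number, so the numbers were not taken as a pairing. With the replicate block 288 genes passed (60.1% higher) and 3 Rab genes, 2 higher (Rab7, Rab18) and 1 lower (Rab20); Rab7 had a log2 fold change of 0.60, the early endosome median was 0.21 and the prenylation median -0.059. The block with GC content and length offsets gave 604 genes, 4 Rab genes (3 higher, 1 lower) and an early endosome median of 0.20.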

Other observations

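Rab7b, a late endosomal and lysosomal Rab named 5430435G22Rik in the table and so outside the symbol rule, averaged 1.38 ± 0.0972 CPM in cKO libraries and 1.68 ± 0.860 CPM in WT libraries (log2 fold change -0.29, edgeR adjusted p = 0.74). Lrrk2, the kinase that phosphorylates several Rab proteins, was chosen after its values were seen. It had 0.302 ± 0.293 CPM in cKO libraries and 0.106 ± 0.128 CPM in WT libraries and was too scarce to test.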
